A study of Mus musculus with 6 samples.

Results

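Adrenergic receptors are the G-protein-coupled receptors through which noradrenaline and adrenaline act on cells. The 7 mouse receptor genes described here are Adra1a, Adra1b and Adra1d (alpha1 receptors), Adra2a, Adra2b and Adra2c (alpha2 receptors) and Adrb1 (the beta1 receptor). They were chosen by name, and each Ensembl gene identifier was looked up in the expression values of 6 mice. All 7 were found among 21006 gene identifiers. After a filter on low values, which asked for 0.1 FPKM or more on average over the 6 samples, 6 of the 7 were among the 18185 genes tested. Adra2b, at a mean of 0.0804 FPKM, was left out by that filter. FPKM counts sequenced fragments per kilobase of exon, scaled by the number of mapped fragments. Levels of different genes can be set side by side as far as the exon lengths used are right.

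The tissue was prefrontal cortex of wild-type male C57BL/6 mice aged 18 months, with 3 animals in each of 2 groups. The PND group is a model of postoperative neurocognitive disorder. Its animals had 30 min of 1.5% isoflurane and then exploratory laparotomy, a surgical opening and inspection of the abdomen, for 30 min under the same anesthetic. The CON group had neither anesthesia nor operation, so the effects of anesthesia, of surgery and of the lidocaine cream and povidone iodine put on the wound cannot be told apart. All the animals went through behavioral tests before their brains were taken, under isoflurane.

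In the cortex, noradrenaline comes from the axons of locus coeruleus neurons in the brainstem. Alpha1 receptors couple mainly to Gq proteins, which activate phospholipase C. Alpha2 receptors couple to Gi/o proteins, which lower cyclic AMP, and part of them sit on the noradrenergic axons themselves, where they hold back release. Beta receptors couple to Gs proteins, which raise cyclic AMP. In prefrontal cortex the alpha2A receptor is known for its part in working memory, and alpha1 and beta1 receptors for responses to stress. Because messenger RNA of noradrenergic axons is made in the brainstem, these data describe the receptor genes of cells whose bodies lay in the dissected tissue. In a bulk sample, fewer cells of a type and less RNA per cell cannot be told apart.

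The effective depth, estimated from the steps between low FPKM values, ran from 7190871 to 9384058 fragments per sample. Genes rich in G and C moved together between animals of the same group. In the 1233 genes of the highest GC decile, the median deviation from the gene mean (log2 scale) was 0.11, -0.30 and 0.37 in PND replicates 1 to 3 and -0.56, 0.49 and -0.03 in CON replicates 1 to 3. CON replicates 1 and 2 thus stood farthest apart, within 1 group. Markers of cortical excitatory neurons were present, with a summed level of 152 to 187 FPKM in PND and 147 to 232 FPKM in CON. Striatal markers summed to 199 to 250 FPKM in PND and 130 to 334 FPKM in CON, the lowest and the highest both being CON animals, replicates 2 and 3. The summed neuron markers were 726 to 816 FPKM in PND and 769 to 855 in CON, astrocyte markers 289 to 399 and 250 to 536, microglia markers 39.9 to 43.5 and 43.7 to 48.6, and oligodendrocyte markers 216 to 274 and 244 to 269. Oligodendrocyte precursor markers summed to 3.41 to 6.53 FPKM in PND and 4.79 to 5.78 in CON, endothelial markers to 22.3 to 27.7 and 20.1 to 22.8, and smooth muscle and pericyte markers to 35.5 to 41.1 and 31.6 to 44.8. Thalamic markers summed to 14.7 to 17.02 FPKM in PND and 15.0 to 16.4 in CON, and choroid plexus markers to 2.92 to 3.63 and 1.53 to 2.94. Of the 58 tested entries in these lists 5, or 8.62%, had an unadjusted p below 0.05, against 3.13% of all genes tested, namely Gfap, Prkcd and Clic6, higher in PND, and Aqp4 and P2ry12, lower in PND. None of the listed markers that were found was at 0 in every sample. The part of these markers in the results below was not tested.

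The 7 genes differ in how they are built and in base composition, and both bear on how their fragments are counted. On GRCm38 (GENCODE M21 annotation) Adrb1 lies at chr19:56722199-56733113 and Adra2a at chr19:54044151-54048982, both on the plus strand. Adra2b lies at chr2:127363208-127367221 and Adra2c at chr5:35278319-35281763, also on the plus strand, and each of the alpha2 genes is annotated with 1 merged exon. Adra1a lies at chr14:66635251-66771168 on the plus strand and Adra1b at chr11:43774606-43901210 on the minus strand, each with 5 merged exons. Adra1d lies at chr2:131545850-131562283 on the minus strand with 2 merged exons. The transcripts of Adra2c and Adra1d had a GC content of 65.5% and 65.4%, above 99.7% of the genes tested, whose median was 48.4%. Adrb1 stood at 58.8%, Adra2a at 58.6%, Adra1b at 54.5%, Adra2b at 53.6% and Adra1a at 50.1%.

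The difference in base composition can be seen in the stretch of 60 coding bases with the highest GC content of each gene, and 5 of them are shown because GC content is set beside the values of the animals below. Capitals mark the CG pairs, and positions count from the first base of the start codon. The Adrb1 stretch, at coding bases 1145 to 1204, and the Adra2a stretch, at 764 to 823, are each 88.3% G and C. The Adra2c stretch, at 13 to 72, is 86.7%, the Adra1d stretch, at 61 to 120, is 85% and the Adra1a stretch, at 389 to 448, is 68.3%.
Adrb1: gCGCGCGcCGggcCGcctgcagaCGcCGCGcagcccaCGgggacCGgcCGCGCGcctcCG
Adra2a: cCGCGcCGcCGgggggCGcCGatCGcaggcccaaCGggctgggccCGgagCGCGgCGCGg
Adra2c: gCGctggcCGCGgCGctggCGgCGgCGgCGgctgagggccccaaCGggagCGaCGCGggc
Adra1d: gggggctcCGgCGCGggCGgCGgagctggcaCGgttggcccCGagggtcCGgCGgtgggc
Adra1a: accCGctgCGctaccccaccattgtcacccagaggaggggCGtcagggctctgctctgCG
The Adrb1 stretch holds 14 CG pairs, the Adra2a stretch 13, the Adra2c stretch 12, the Adra1d stretch 9 and the Adra1a stretch 4. The richest stretches of Adra1b and Adra2b reach 81.7% and 75%.

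The receptors are related in sequence, so it was checked whether their fragments could be taken for one another. The coding sequences of Adra2a and Adra2c were the most alike of the 21 pairs, with 72.8% identical aligned bases, and their longest identical run is 26 bases long. It is shown with the longest runs of the other alpha2 pairs and of 2 alpha1 pairs, and every letter is shared by both genes of the pair.
Adra2a and Adra2c: gagtacaacctgaagcgcacgccgcg
Adra2b and Adra2c: tccatcgtgcacctgtgtgccat
Adra2a and Adra2b: caaaacctcttcctggtgtc
Adra1a and Adra1d: aggctgctcaagttttcccg
Adra1b and Adra1d: ttctggctgggctacttcaa
No stretch of 50 bases was shared between 2 of the 7 genes. Of the 50-base stretches of Adra2a, Adra2b and Adra2c, 0% occurred in another annotated gene, and the share was 0.386% for Adra1a, 0.148% for Adra1b and 0.39% for Adrb1. Adra1d was the exception, at 5.35%, since 147 of its exon bases overlap Gm14285, an RNA annotated on the opposite strand. Gm14285 was listed at 0.595, 0 and 0.561 FPKM in PND replicates 1 to 3 and at 0, 1.94 and 0.732 FPKM in CON replicates 1 to 3. Whether counting used the strand is not given in the sources used here, so reads from the overlap could belong to either gene and the Adra1d values are uncertain to that extent.

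The most and the least abundant receptor genes have start regions of a like kind, shown for that reason. The 250 bases before the RefSeq start (GRCm38.p6) are chr19:56721867-56722116 for Adrb1 and chr2:127362929-127363178 for Adra2b, both on the plus strand. Capitals mark GGGCGG, the letters of a GC box, and CCAAT, searched on both strands.
Adrb1: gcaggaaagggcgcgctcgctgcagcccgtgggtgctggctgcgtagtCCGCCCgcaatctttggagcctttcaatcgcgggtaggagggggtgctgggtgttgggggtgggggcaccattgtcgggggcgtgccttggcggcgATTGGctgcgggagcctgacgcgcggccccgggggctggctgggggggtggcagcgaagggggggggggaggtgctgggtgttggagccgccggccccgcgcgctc
Adra2b: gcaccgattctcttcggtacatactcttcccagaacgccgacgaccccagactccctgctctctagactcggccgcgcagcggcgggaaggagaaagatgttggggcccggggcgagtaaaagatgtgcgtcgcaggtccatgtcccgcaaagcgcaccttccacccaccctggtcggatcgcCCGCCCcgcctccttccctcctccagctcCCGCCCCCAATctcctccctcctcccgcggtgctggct
The Adrb1 window is 74% G and C with 24 CG pairs, and the Adra2b window is 66% with 23, against medians of 52.4% and 6 over 32851 such windows. GGGCGG occurs 1 time before Adrb1 and 2 times before Adra2b, and in 32.7% of all windows. CCAAT occurs 1 time in each, and in 33.8% of all windows, and in Adra2b it directly adjoins a GGGCGG match on the other strand. TATAAA is in neither window and in 12.4% of all. Such matches describe letters and not binding. The likeness is not particular to these genes, since Adra2a had 67.6% with 22 CG pairs and an Adra1b window 72.8% with 22. Adra2c had 53.6% with 6 CG pairs, and the other Adra1b window 41.6% with 3. Of the 7 genes, 5 had a RefSeq window, and Adra1a and Adra1d had none in the table used.

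The levels of the receptor genes fell into a fixed order in most pairs. Adrb1 was the most abundant, at 6.12 ± 1.05 FPKM (SD, n = 6), a level above that of 74.7% of all genes listed. Adra2a followed at 2.43 ± 0.457 and Adra1a at 2.39 ± 0.424 FPKM. Adra1b stood at 1.15 ± 0.114, Adra1d at 0.759 ± 0.464, Adra2c at 0.514 ± 0.241 and Adra2b at 0.0804 ± 0.0514 FPKM. Each of the 21 pairs of genes was compared within animals on the log2(FPKM + 0.1) scale with a two-sided exact permutation test that flips the sign of each animal's difference. In 18 pairs the same gene was higher in 6 of 6 animals, with an exact p of 0.0312, the smallest that 6 animals allow, and an adjusted p of 0.0365 over the 21 pairs. The test asks whether the animals agree. An effect of exon length or base composition shared by all 6 animals would go unseen by it and was not tested.

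The 3 other pairs were neighbours in this order whose levels were not separated. Adra2a exceeded Adra1a in 4 of 6 animals, by a mean log2 difference of 0.02 ± 0.34 (SD, n = 6, exact p = 0.75). Adra1b exceeded Adra1d in 5 of 6, by 0.70 ± 0.68 (exact p = 0.0938, adjusted p = 0.0984). Adra1d exceeded Adra2c in 5 of 6, by 0.41 ± 0.39 (exact p = 0.0938, adjusted p = 0.0984). The remaining 3 neighbours were separated, Adrb1 exceeding Adra2a by 1.30 ± 0.36, Adra1a exceeding Adra1b by 0.97 ± 0.23 and Adra2c exceeding Adra2b by 1.73 ± 0.86 on that scale.

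**Figure D1:**
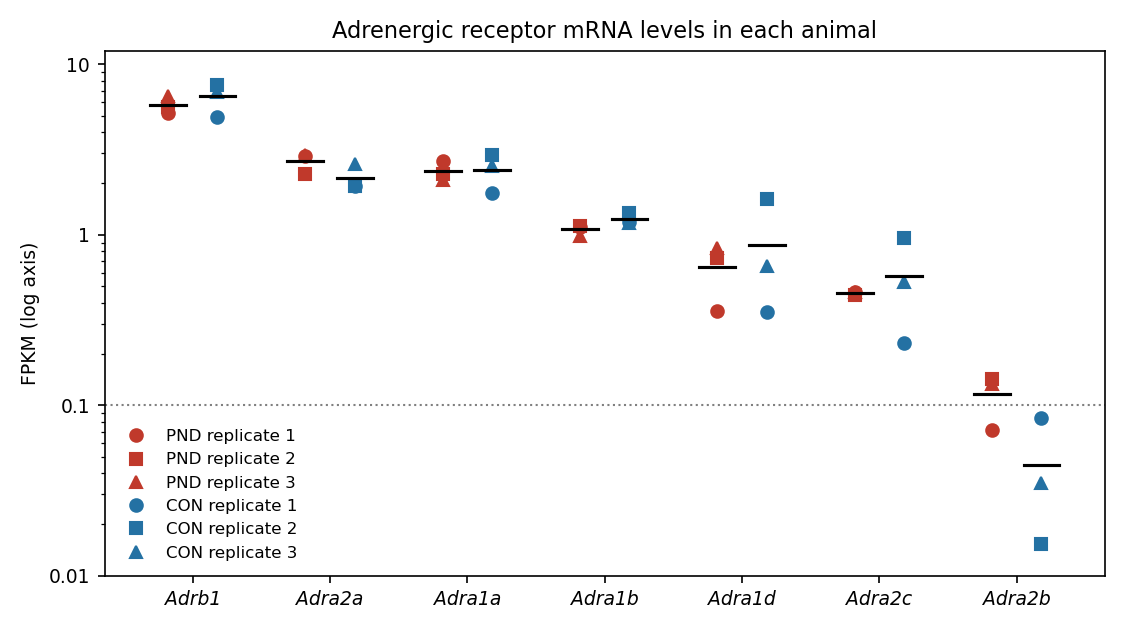
Level of each receptor gene (FPKM, log axis) in each of the 6 animals, PND in red and CON in blue, marker shape giving the replicate, with the group mean as a black bar and the filter of 0.1 FPKM as a dotted line. Adrb1 lies between 4.93 and 7.59 FPKM, above every value of every other receptor gene, and Adra2b lies lowest.

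Adra2b needs a caution about gene length. Its FPKM values became whole fragments in all 6 samples at a length of 7914 bases, 1.97 times the 4014 exon bases of the GENCODE M21 annotation. Divided by the shorter length its mean would be 0.159 FPKM and its highest sample 0.282 FPKM, so the mean would still lie below that of Adra2c but would pass the filter of 0.1 FPKM. That Adra2b was not among the genes tested therefore rests on the length used. For Adra1d and Adra2c the matching lengths of 1896 and 3440 bases were within 5 bases of the annotated 1899 and 3445. At their annotated lengths Adra1a, Adra1b, Adra2a and Adrb1 gave whole fragments, within 0.05, in 0, 2, 0 and 1 of 6 samples. No matching length was sought for them, as each exceeded 30 estimated fragments in a sample. Their levels are uncertain to that extent.

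No difference between PND and CON was detected for any receptor gene. With limma's test on log2(FPKM + 0.1), none of the 6 tested genes had an unadjusted p below 0.05, against 3.13% of all genes tested, and none passed the study's cut-off of an absolute log2 fold change above 1 with that p, against 1.33% of all. At an adjusted p below 0.05, 0.011% of all genes passed and no receptor gene did. The same fit on estimated fragments with voom also gave 0. The median log2 fold change of the 6 genes was -0.14, and 0.01 over all genes tested. Of the 6, 5 had a log2 fold change below 0, against 47.6% of all genes. Among these 5, Adra1a was at -0.003, and Adra1a, Adra1d and Adra2c changed sign in at least 1 fit that left out 1 animal. A p that misses the threshold does not show that levels were equal, and the intervals below say which sizes of difference these animals leave possible. Since 3 animals a group cannot give a two-sided exact permutation p under 0.1, that test could not pass 0.05 for any gene, and its values on the log2 scale stand beside those of limma. Nothing in the labels says more than that the animals were separate mice.

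Adrb1, the beta1 receptor, stood at 5.17, 5.59 and 6.50 FPKM in PND replicates 1 to 3 and at 4.93, 7.59 and 6.92 FPKM in CON replicates 1 to 3. The CON group held both the lowest and the highest value, so the groups overlapped fully. The PND mean was 5.75 ± 0.679 FPKM and the CON mean 6.48 ± 1.38 FPKM (SD, n = 3 each). The log2 fold change was -0.15 (SE 0.20, limma p = 0.461, adjusted p = 1, exact permutation p = 0.5), with a 95% interval from -0.61 to 0.31. Leaving out 1 animal at a time gave -0.33 without CON replicate 1, the fit with the smallest p for any receptor gene (limma p = 0.0772, with no exact permutation p computed), to -0.03 without CON replicate 2.

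Adra2a, the alpha2A receptor and the most abundant alpha receptor gene with Adra1a, stood at 2.91, 2.26 and 2.94 FPKM in PND and at 1.93, 1.94 and 2.60 FPKM in CON. Both groups had 1 animal that reached into the other, PND replicate 2 and CON replicate 3. The means were 2.71 ± 0.385 and 2.15 ± 0.383 FPKM. The log2 fold change was 0.32 (SE 0.21, limma p = 0.166, exact permutation p = 0.2), with a 95% interval from -0.17 to 0.81, that is from 0.89-fold to 1.75-fold. Over the 6 fits that each left out 1 animal the log2 fold change stayed between 0.25 and 0.45 with a smallest p of 0.0855.

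Adra2c, the alpha2C receptor, known for its strong expression in striatum, stood at 0.459, 0.441 and 0.464 FPKM in PND and at 0.232, 0.962 and 0.525 FPKM in CON. The PND animals lay close together, and the CON animals spanned a 4.14-fold range that enclosed them. The log2 fold change was -0.12 (SE 0.45, limma p = 0.789, exact permutation p = 0.7), with a 95% interval from -1.17 to 0.92, and it was 0.28 without CON replicate 2. That animal had the highest Adra2c value and the lowest summed striatal markers, 130 FPKM. The values rest on 14, 12 and 15 fragments in PND and on 6, 27 and 13 in CON.

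Adra2b, the alpha2B receptor, stood at 0.0711, 0.143 and 0.134 FPKM in PND and at 0.0839, 0.0154 and 0.0350 FPKM in CON. PND replicates 2 and 3 lay above every CON animal, and PND replicate 1 lay below CON replicate 1. At the length given above these are 5, 9 and 10 fragments against 5, 1 and 2. They sum to 24 in PND (exact 95% Poisson interval 15.4 to 35.7) and to 8 in CON (3.45 to 15.8), with intervals that cover counting error only, and the effective depths summed to 26130114 and 22833179 fragments. In the fit without the filter the log2 fold change was 0.59 (SE 0.33, limma p = 0.115, exact permutation p = 0.2), with a 95% interval from -0.18 to 1.36. A difference between the groups of animals was thus not detected.

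Adra1a, the alpha1A receptor, stood at 2.72, 2.27 and 2.11 FPKM in PND and at 1.76, 2.93 and 2.53 FPKM in CON. The CON animals enclosed the PND animals. The means, 2.36 ± 0.315 and 2.41 ± 0.591 FPKM, were nearly the same, and the log2 fold change was 0.00 (SE 0.23, limma p = 0.989, exact permutation p = 1), with a 95% interval from -0.55 to 0.55. A change of that size in either direction was therefore within the interval.

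Adra1b, the alpha1B receptor, stood at 1.12, 1.12 and 0.988 FPKM in PND and at 1.18, 1.34 and 1.18 FPKM in CON. It was the 1 receptor gene whose groups did not overlap, with PND lower, a pattern that 7.66% of all genes tested showed in either direction, 3.88% with PND lower and 3.78% with PND higher. The means were 1.08 ± 0.0759 and 1.23 ± 0.0899 FPKM. The log2 fold change was -0.18 (SE 0.21, limma p = 0.421), with a 95% interval from -0.68 to 0.32 (exact permutation p = 0.1, the smallest these groups allow). The groups overlapped after a correction for GC content, after quantile normalization and after centring each sample on its median. At the annotated exon length the values correspond to 28.6 to 36.8 estimated fragments a sample, and 2 of 6 were whole. Counting error alone at the median of 30.7 fragments is then 18.1%, more than the coefficient of variation of 9.85% over the 6 animals. No matching length was sought, so the fragment numbers and this counting error are uncertain.

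Adra1d, the alpha1D receptor, stood at 0.357, 0.733 and 0.841 FPKM in PND and at 0.351, 1.62 and 0.659 FPKM in CON. CON replicate 2 stood alone at the top, and the lowest PND and CON animals were close to each other. The log2 fold change was -0.24 (SE 0.53, limma p = 0.669, exact permutation p = 1), with a 95% interval from -1.49 to 1.01, the widest of the tested receptor genes, and it was 0.28 without CON replicate 2. The values rest on 6, 11 and 15 fragments in PND and on 5, 25 and 9 in CON. CON replicate 2 also had the highest level of the overlapping Gm14285.

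**Figure D2:**
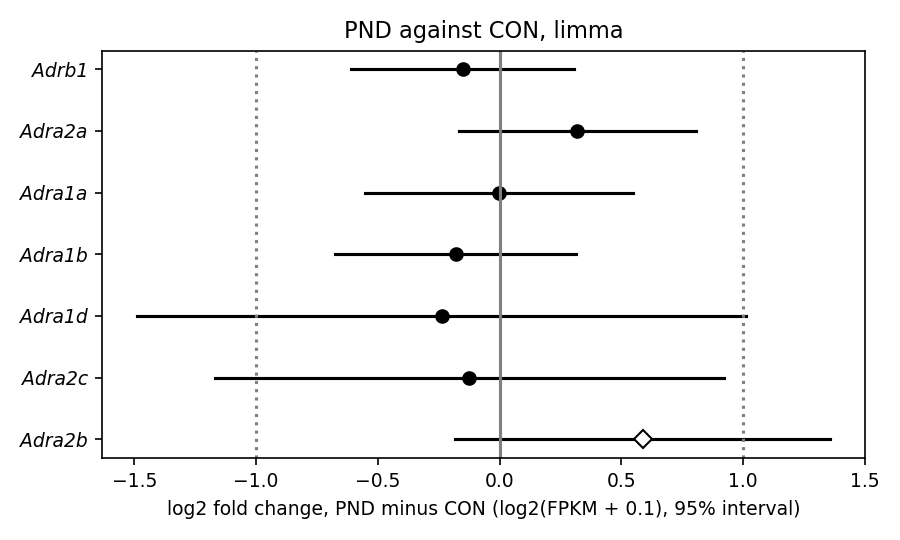
Log2 fold change, PND minus CON, of each receptor gene on the log2(FPKM + 0.1) scale from limma, with its 95% interval, ordered by level. Dotted lines mark the study's cut-off and the open diamond marks Adra2b, taken from the fit without the filter. All 7 intervals include 0, and those of Adra1d and Adra2c reach past the cut-off on at least 1 side, as does that of Adra2b.

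The spread between animals differed among the receptor genes. The coefficient of variation over the 6 animals was 9.85% for Adra1b, 17.2% for Adrb1, 17.8% for Adra1a and 18.8% for Adra2a, and 46.9% for Adra2c, 61.2% for Adra1d and 63.9% for Adra2b. Counting error was taken at the median number of fragments, for Adra1a, Adrb1 and Adra2a at annotated exon lengths that were not matched. It was 7.77% for Adra1a, 7.87% for Adrb1 and 10.6% for Adra2a, below their spread. It was 27.2% for Adra2c, 31.6% for Adra1d and, with the whole fragments given above (median 5), 44.7% for Adra2b, also below their spread.

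The deviations of the 2 receptor genes richest in G and C were set beside those of other genes of their GC content. In CON replicate 1, Adra2c and Adra1d lay 0.80 and 0.77 below their means (log2 scale), and the smoothed deviation of genes of their GC content was -0.85 and -0.84. In CON replicate 2 they lay 0.88 and 1.15 above, and the smoothed deviation was 0.73 for each. In CON replicate 1 the values lay close together, and in CON replicate 2 Adra1d lay above the smoothed value. In PND replicates 1 to 3, Adra2c deviated by -0.05, -0.10 and -0.04, and the smoothed values were 0.10, -0.46 and 0.56. Adra1d deviated by -0.75, 0.11 and 0.29 in the same animals, beside smoothed values of 0.10, -0.46 and 0.56.

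**Figure D3:**
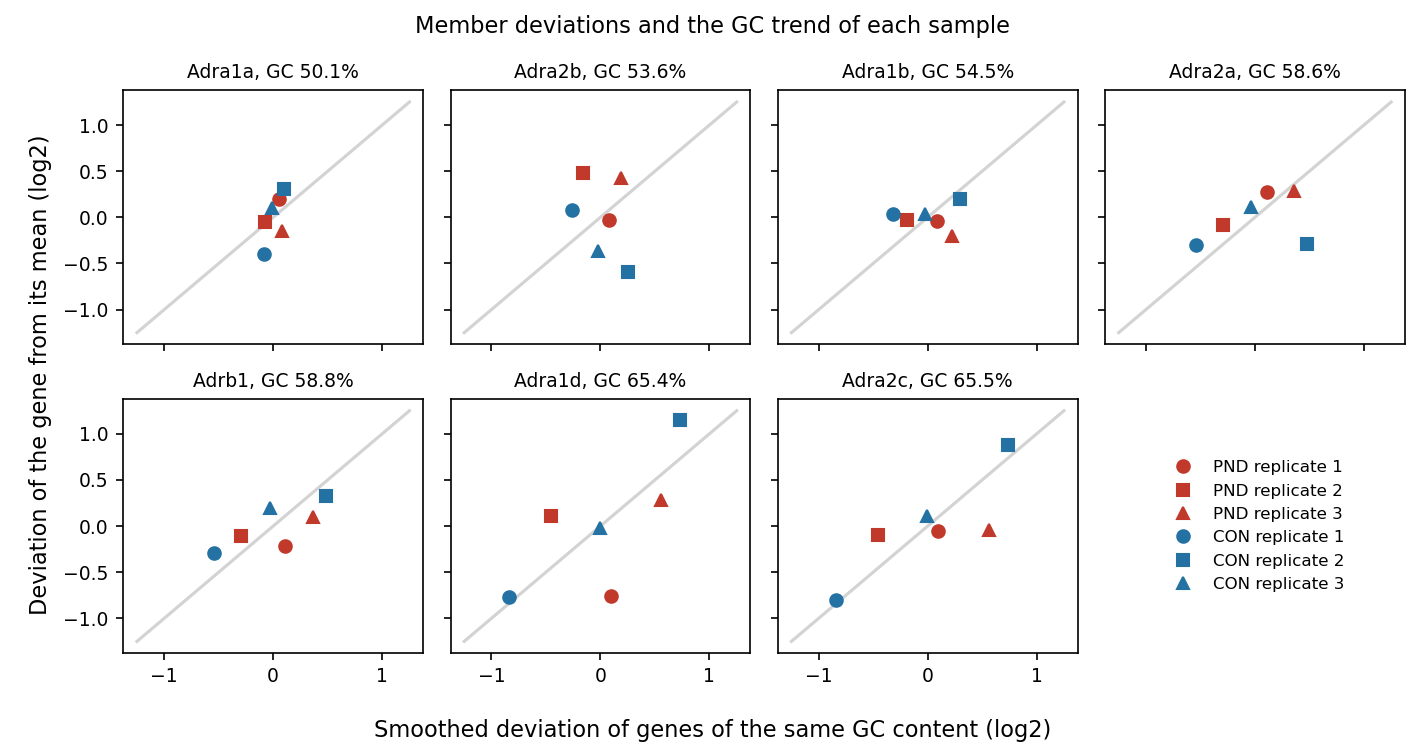
Deviation of each receptor gene from its mean over the 6 animals (vertical axis, log2) against the smoothed deviation of genes of the same GC content in the same animal (horizontal axis, log2), 1 panel per gene ordered by GC content, with a grey line where the 2 are equal. CON replicates 1 and 2 lie at opposite ends of the line in the panels of Adra1d and Adra2c, at 65.4% and 65.5% GC.

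Subtracting the smoothed deviation lowered the SD over the animals for 3 genes and raised it for 4. On the log2 scale the SD went from 0.72 to 0.51 for Adra1d, from 0.54 to 0.33 for Adra2c and from 0.25 to 0.21 for Adra1a. It went from 0.13 to 0.27 for Adra1b, from 0.26 to 0.39 for Adra2a, from 0.24 to 0.27 for Adrb1 and from 0.43 to 0.53 for Adra2b. After that correction the log2 fold change was -0.34 for Adra1d, -0.23 for Adra2c, -0.24 for Adrb1, -0.24 for Adra1b, -0.02 for Adra1a and 0.23 for Adra2a, and none of the 6 had an unadjusted p below 0.05.

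The make-up of the receptor mRNA was described by the share of each subfamily in the summed FPKM of the 7 genes, with no test. The sum was 12.8, 12.6 and 14.0 FPKM in PND and 10.5, 16.4 and 14.4 FPKM in CON. Adrb1 made up 40.4% to 47.9% of it and the alpha1 genes 28.2% to 35.9%, with overlapping groups for both. The alpha2 genes made up 26.9%, 22.7% and 25.3% in PND and 21.5%, 17.8% and 21.9% in CON, so the lowest PND animal lay above the highest CON animal. How often such shares separate for other gene groups was not computed. The summed alpha2 FPKM overlapped, at 3.44, 2.85 and 3.54 in PND and 2.25, 2.91 and 3.16 in CON, so the gap was in the shares and not in the sums. Most of the alpha2 share was Adra2a, with 22.8%, 18.0% and 21.1% in PND and 18.4%, 11.8% and 18.0% in CON, and the groups overlapped for that gene on its own. With values corrected for GC content the alpha2 share was 26.6%, 23.7% and 24.1% in PND and 23.4%, 15.8% and 21.9% in CON. The gap between the groups was then small.

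**Figure D4:**
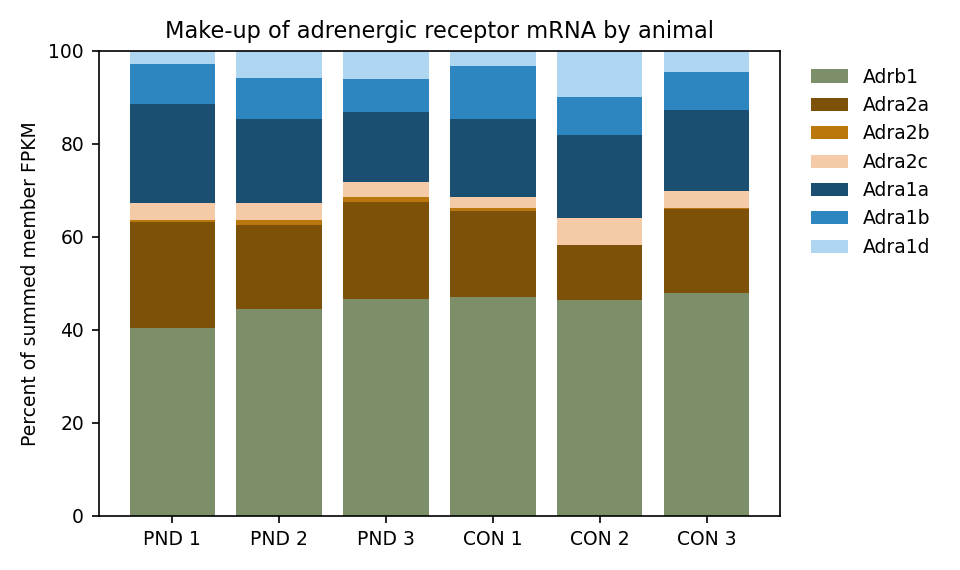
Share of each receptor gene in the summed FPKM of the 7 genes (percent, stacked to 100%) in each animal, with Adrb1 in green, alpha2 genes in brown and alpha1 genes in blue. The brown part is 22.7% to 26.9% in PND and 17.8% to 21.9% in CON, and Adrb1 is the largest single share in each animal.

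Genes that supply noradrenaline or act downstream of the receptors were taken from lists, of 74 genes in all. Of these 70 were found and 66 were tested. None had an unadjusted p below 0.05 by limma, against 3.13% of all genes, and the smallest p was 0.0699, for Gch1. With voom on estimated fragments the count was 1, Gch1. The median log2 fold change was 0.00, with a range from -1.001 for Gch1 to 1.40 for Spry1. The groups did not overlap for 3 of the 66, or 4.55%, against 7.66% of all genes. These 3, and Gch1 above, were picked after their values were seen. They were Prkacb, a catalytic subunit of protein kinase A (39.5 ± 1.44 FPKM in PND and 43.5 ± 1.59 in CON), Prkar2a, a regulatory subunit of that kinase (13.2 ± 0.436 and 12.0 ± 0.596), and Spry1, an inhibitor of growth factor signalling (0.851 ± 0.149 and 0.388 ± 0.346).

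In the list for noradrenaline supply, 5 of 8 genes were found and 3 were tested, and Dbh, Slc6a2 and Phox2a were not analysed here. Ddc, which makes dopamine from L-DOPA, was at 1.86, 0.897 and 1.49 FPKM in PND and at 0.922, 0.917 and 0.623 FPKM in CON. The log2 fold change was 0.68 (SE 0.32), which did not pass the test, and PND replicate 2 was the animal within the CON range. Leaving out 1 animal at a time gave log2 fold changes from 0.47 without PND replicate 1 to 0.96 without PND replicate 2, and that last fit was the 1 of 6 with an unadjusted p below 0.05. Gch1, which makes the cofactor of tyrosine hydroxylase, was at 0.326, 0.0911 and 0.0768 FPKM in PND and at 0.385, 0.265 and 0.551 FPKM in CON. Th, tyrosine hydroxylase itself, had 0.211 FPKM at most and lay below the filter. Of 5 locus coeruleus markers 2 were found, and they summed to 0.0258 to 0.211 FPKM.

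The list of monoamine breakdown and low-affinity uptake held 5 tested genes with a median log2 fold change of 0.35 and no p below 0.05. Its most abundant member Maoa, a monoamine oxidase, averaged 11.8 ± 1.53 FPKM in PND against 10.9 ± 1.38 in CON, and its log2 fold change was 0.11 (SE 0.15). The arms downstream of the receptors had medians close to 0. In the Gq arm, which alpha1 receptors use, 12 tested genes had a median of -0.03, and Prkcb, a protein kinase C, stood at 57.3 ± 6.73 and 58.5 ± 9.02 FPKM. In the Gi/o arm, which alpha2 receptors use, 10 genes had a median of 0.01, and Gnai1, an inhibitory G-protein subunit, stood at 71.0 ± 4.51 and 75.4 ± 17.2 FPKM. In the Gs and cyclic AMP arm, which beta receptors use, 22 genes had a median of 0.05, and Prkar1a, a regulatory subunit of protein kinase A, stood at 134 ± 5.29 and 134 ± 16.3 FPKM.

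Genes that desensitise receptors or switch G proteins off were 14, with a median log2 fold change of 0.01, and Rgs4, which speeds the switching off of G-protein subunits, stood at 61.2 ± 5.33 and 64.7 ± 6.47 FPKM.

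**Figure D5:**
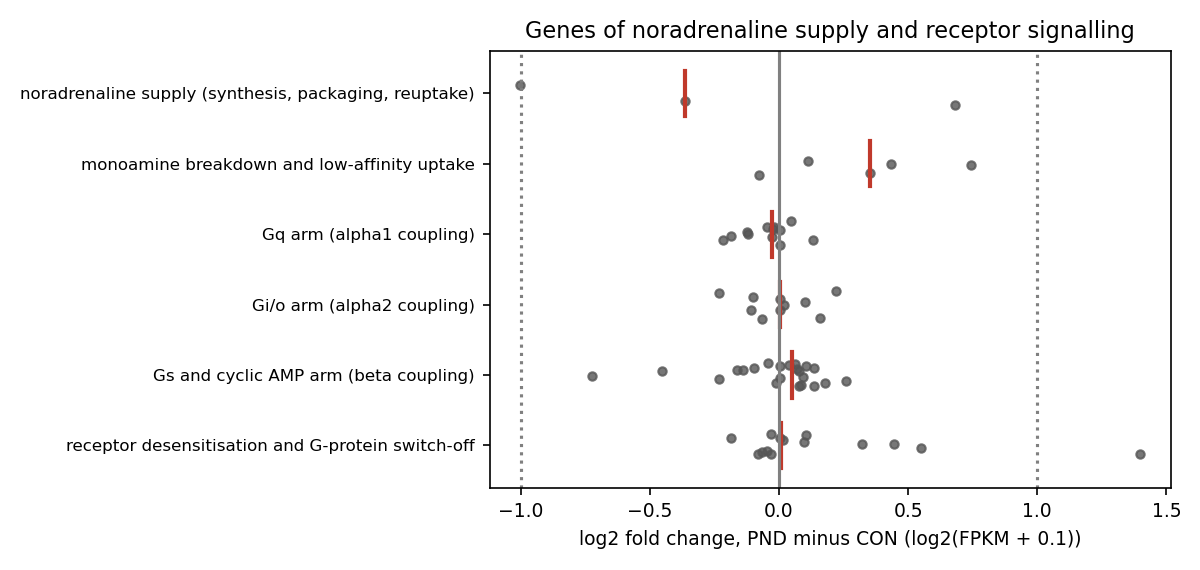
Log2 fold change, PND minus CON (log2(FPKM + 0.1) scale), of the 66 tested genes of noradrenaline supply and receptor signalling, 1 point a gene and 1 row a list, with the list median as a red bar and the study's cut-off as dotted lines. The points of the 3 signalling arms lie within 1 of 0, and the largest values are 1.40 for Spry1 and -1.001 for Gch1.

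The genes whose pattern over the 6 animals was most like that of Adrb1, the most abundant receptor gene, were Cit, Ahsa1 and Raly. Likeness was the root-mean-square difference of the centred log2 values. It was taken over the 12322 other genes with a gene symbol that averaged 1 FPKM or more. The difference was 0.0394 for Cit, 0.0588 for Ahsa1 and 0.0589 for Raly. Cit, which encodes citron kinase, stood at 8.56, 9.12 and 10.2 FPKM in PND and at 7.61, 11.9 and 10.6 FPKM in CON. Like Adrb1, it was lowest in CON replicate 1 and highest in CON replicate 2. The GC content of Cit was 54.2%, that of Ahsa1 47.2% and that of Raly 58.9%.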

How the data were processed

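Total RNA of the prefrontal cortex was depleted of ribosomal RNA and sequenced by the authors, who filtered reads with Seqtk, aligned them with HISAT2, counted with StringTie, scaled with TMM and converted the result to FPKM. The deposited values are these FPKM, 1 column per animal for 21006 genes. The submitters' processing notes also name Bowtie 0.12.2 and mouse builds mm8 and mm9 with no role, so coordinates here are those of GRCm38 and describe the annotation only. The age label reads 18 months, while sample titles carry the letters 17M. Groups came from the treatment labels.

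The PND and CON groups were fitted with limma 3.58.1 (R 4.3.3; lmFit, then eBayes with trend), two-sided and without covariates. Values entered as log2(FPKM + 0.1), for genes averaging 0.1 FPKM or more. Fold changes on this scale understate changes of low genes. Benjamini-Hochberg adjustment was made over every gene tested. The fit was tested on simulated data. A few genes of the lists are not reported here and were left out of the list counts and sums. The receptor genes, the lists and the tests were chosen with earlier results of these data known. All 7 receptor genes were named, and of each signalling list the genes with a p below 0.05 or else the most abundant, and for Adrb1 the 3 genes of the most similar profile.

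Depth was estimated by multiplying low FPKM by exon length (GENCODE M21) and taking the step between values as 1 fragment. Of the values from 0.5 to 20.5 fragments, 93.8% to 94.5% lay within 0.05 of a whole number for genes with 1 transcript and 41.1% to 44.8% over all genes, so fragment numbers are estimates. For GC correction a lowess (span 0.3) of deviations on GC content was subtracted in each sample. Promoter sequences came from RefSeq (GRCm38.p6) and coding sequences from GRCm38 with GENCODE M21. Alternatives were another pseudocount, filter, normalization, GC correction, replicate block, no intensity trend, voom on estimated fragments, and leaving out each animal.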

Additional observations from a re-analysis of the deposited data

How the results depend on the processing

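Under the alternatives run, no receptor gene reached an unadjusted p below 0.05. The single non-overlapping receptor gene became 0 with GC correction, quantile normalization or median centring, and 1 to 4 when 1 animal was left out (4 without CON replicate 1). With 2 animals against 3 the groups of 13.7% to 21.4% of all genes tested did not overlap, against 7.66% with 3 against 3, so these counts are not comparable. All genes past the cut-off numbered 241, with 25 at a pseudocount of 1, 59 at a mean of at least 1 FPKM and 235 to 388 when 1 animal was left out, the highest without CON replicate 2. Signalling genes with a p below 0.05 numbered 0, with 1 without the intensity trend, 1 with voom and 1 to 2 when 1 animal was left out, where 3.62%, 2.92% and 2.24% to 5.28% of all genes had such a p. With a mean of at least 1 FPKM, 4 receptor genes and thus 6 pairs were left, of which 5 were separated and 5 ordered alike in every animal, against 18 and 18 of 21. The level order was not tested with 1 animal left out, since 5 animals cannot give an exact p under 0.0625.

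Of 202 single-gene refits, 184 kept direction and side of the threshold, 17 changed sign and 1, Ddc without PND replicate 2, passed the threshold. Leaving out 1 animal gave log2 fold changes from -0.20 to 0.15 for Adra1a, -0.68 to 0.28 for Adra1d, -0.55 to 0.28 for Adra2c, -0.12 to 0.094 for Prkcb, -0.18 to 0.11 for Gnai1, -0.056 to 0.10 for Prkar1a and -0.14 to 4.7e-05 for Rgs4. Prkar1a also turned to -0.028 with quantile normalization and to -0.010 with median centring. The cause was not tested. Adra2b, below the filter, was fitted only without it. Counting error was largest for Adra2b, Adra1d and Adra2c.

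Same-numbered animals did not deviate together (correlations of -0.05, -0.45 and 0.03 for numbers 1 to 3). Correlations of differently numbered animals ran from -0.42 to 0.43. The numbers thus gave no sign of pairing, which such correlations cannot exclude. Adding the number as a replicate block left 226 genes past the cut-off against 241, and no receptor gene had a p below 0.05. The fold changes cannot move in this balanced design.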
